A study of Mus musculus with 6 samples.

Results

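Interferon signalling genes were followed in MLL-AF9 leukemia cells from mice given FF-10501-01, which inhibits IMPDH, an enzyme that cells need to make guanine nucleotides. The genes were taken by name and are the type I interferon receptor chains Ifnar1 and Ifnar2, the interferon gamma receptor chains Ifngr1 and Ifngr2, the receptor-bound kinase Tyk2, and the transcription factors Stat2, Irf9, Irf7 and Irf1. All 9 had 1 row each in the deposited table of 26384 gene entries, none of them merged with another gene. All 9 were among the 11004 entries with a mean of at least 1 FPKM (fragments scaled to the length of the transcript and to all mapped fragments), over which the tests were run.

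The leukemia was made by transducing c-Kit+ mouse marrow cells with a retrovirus that carries the MLL-AF9 fusion oncogene and GFP, and was passed serially through mice. Leukemia cells were injected into C57BL/6J mice, and every library is from GFP+ cells sorted from bone marrow. The 3 control libraries came from vehicle-treated mice and the other 3 from mice that took FF-10501-01 by mouth at 160 mg/kg on consecutive days, with harvest 48 h after the first dose as labelled (the methods elsewhere give a shorter interval). No untransplanted or untreated control was used here, and the cells grew in mice whose own bone marrow was intact. Replicate numbers follow the table's columns and are not tied to an individual mouse.

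FPKM summed to 531092 to 551958 per library. Read totals are not given in the table, and from the steps between low values the depth of the libraries relative to vehicle replicate 1 was estimated at 0.988 to 1.25. Of 10 markers of MLL-AF9 cells, 9 were expressed, with Hoxa9 (merged with Mir196b) at 189 to 255 FPKM and Meis1 at 63.2 to 67.5 FPKM, while Mecom was listed at 0 in all 6 libraries. Of these markers Hoxa9 (log2 change 0.27, limma adjusted p = 0.0465) and Itgam (0.33) were higher in treated cells. The paper reports Hoxa9 as unaffected, by another test. Kit (-0.27), Cd34 (-0.54) and Flt3, a progenitor receptor, were lower. Flt3 was at 27.7 to 54.6 FPKM in vehicle and 6.53 to 11.9 FPKM in treated libraries. Over all tested entries 7.43% were higher and 7.46% lower. The summed level of 8 neutrophil markers was 279 to 306 FPKM in vehicle and 650.5 to 1504 FPKM in treated libraries. Most of that sum was S100a8 and S100a9 in every library. Of the 8 markers 6 were tested and 5 were higher, while Mmp8 did not pass (limma adjusted p = 0.224). Of 10 markers of T and NK cells, 9 stayed below 1 FPKM throughout. Summed markers of tissue macrophages were at 43.0 to 53.3 FPKM in vehicle and 58.3 to 79.9 FPKM in treated libraries. Most of that sum was Vcam1 (38.1, 51.1 and 40.9 FPKM in vehicle, 54.9, 67.9 and 76.4 FPKM in treated libraries). Vcam1 RNA was higher in treated cells (log2 change 0.60, limma adjusted p = 0.0252). The paper reports Vcam1 protein, another measure, as raised by the drug on the leukemia cells. Cd163 went the other way, from 2.67, 0.76 and 2.52 FPKM to 0.85, 0.34 and 0.10 FPKM, and did not pass (limma adjusted p = 0.0532). The other macrophage markers were at most 1.32 FPKM. Summed markers of B cells (at most 8.82 FPKM) and erythroid cells (at most 8.45 FPKM) were low. The B cell sum was 7.90 to 8.82 FPKM in vehicle and 5.62 to 6.49 FPKM in treated libraries. Most of it was Cd79b, which was lower in treated cells (log2 change -0.37, limma adjusted p = 0.0214). Among 8 markers of plasmacytoid dendritic cells, a cell type rich in Irf7, 6 stayed below 1 FPKM throughout. Of those, Siglech and Klk1 were at 0 in all 6 libraries. Pacsin1 was at 0.068, 0.27 and 0.027 FPKM in vehicle and 0.63, 0.21 and 0.75 FPKM in treated libraries. The summed level of 130 to 150 FPKM in vehicle and 169 to 195 FPKM in treated libraries was almost all that of Bst2, itself induced by interferon, and Tcf4.

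Type I interferons bind a receptor of IFNAR1 and IFNAR2, whose kinases TYK2 and JAK1 phosphorylate STAT proteins, STAT2 among them. STAT2 joins IRF9 in the complex ISGF3, which binds a promoter element called ISRE. Interferon gamma binds IFNGR1 and IFNGR2 and acts through JAK1, JAK2 and the promoter element GAS to induce IRF1. IRF7 is itself induced by ISGF3 and drives further type I interferon transcription.

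The promoter sequences of Stat2, Irf1 and Irf7 are shown because these 3 members had the largest differences between the groups. Each line gives the 250 bases before the transcription start of the RefSeq annotation (GRCm38.p6), on the gene's strand, with capitals for exact matches to GAAA and GAAA with any 2 bases between them (ISRE, either strand) or TTCNNNGAA (GAS, which reads the same on both strands).
Stat2, chr10:128270248-128270497, plus strand: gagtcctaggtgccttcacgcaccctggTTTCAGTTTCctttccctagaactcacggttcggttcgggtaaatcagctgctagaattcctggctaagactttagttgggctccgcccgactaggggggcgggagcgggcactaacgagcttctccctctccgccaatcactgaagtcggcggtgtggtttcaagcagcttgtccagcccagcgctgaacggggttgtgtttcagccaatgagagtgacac
Irf1, chr11:53769764-53770013, plus strand: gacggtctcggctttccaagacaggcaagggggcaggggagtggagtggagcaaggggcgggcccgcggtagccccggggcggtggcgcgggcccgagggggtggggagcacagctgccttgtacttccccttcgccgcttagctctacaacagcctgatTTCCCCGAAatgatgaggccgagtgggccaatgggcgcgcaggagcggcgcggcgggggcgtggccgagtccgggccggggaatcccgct
Irf7, chr7:141266425-141266674, minus strand: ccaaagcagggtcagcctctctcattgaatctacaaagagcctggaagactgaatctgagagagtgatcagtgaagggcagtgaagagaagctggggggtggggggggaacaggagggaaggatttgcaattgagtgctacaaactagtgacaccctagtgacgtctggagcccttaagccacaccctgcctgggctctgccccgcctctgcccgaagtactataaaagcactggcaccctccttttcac

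RefSeq gave 11 windows for the 9 members, each of 250 bases before and 50 after a start. The Stat2 window held an ISRE match on the reverse strand, TTTCAGTTTC, from 222 to 213 bases before the start. It was the only member with one, where 3.44% of 32851 windows of all genes held that motif. One of the Irf1 windows held the GAS match TTCCCCGAA from 90 to 82 bases before the start, and further GAS matches lay in the windows of Ifnar2 (TTCCTGGAA, from 214 bases before the start) and Ifnar1 (TTCACGGAA, across the start itself). Of all windows, 8.3% held a GAS match. The windows of Irf7, Irf9, Tyk2, Ifngr1 and Ifngr2 held neither string, which says nothing of other spellings or of sites outside them.

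Irf7, Stat2 and Irf9 rose in FF-10501-01-treated cells, Ifngr1 fell, and the other 5 members did not pass the test. The difference was largest for Irf7, at 1.74-fold on the scale of FPKM + 1, followed by Stat2 at 1.48-fold. Against these 3 higher and 1 lower of the 9 members, limma called 7.43% of all 11004 entries higher and 7.46% lower, 14.9% in either direction (Benjamini-Hochberg adjusted p, threshold 0.05). The median log2 fold change was 0.14 over the members and -0.01 over all entries, and the members' median, which is the value of Ifnar2, was 0.08 when vehicle replicate 1 was left out. In 6 members every treated library lay above every vehicle library and in 2 every treated library lay below, where 38.8% of all entries were separated in this way. Over all entries 818 were higher and 821 lower. Leaving out the third treated library (FF-10501-01 replicate 3) gave 147 and 71, and Stat2 was then the only member that passed. These counts were 239 and 118 when vehicle replicate 1 was left out, 372 and 310 when vehicle replicate 3 was, and 370 and 366 when FF-10501-01 replicate 2 was, and 463 were lower when FF-10501-01 replicate 1 was. Leaving out vehicle replicate 2 raised the number of lower members from 1 to 2. With FPKM rescaled to TPM, 1008 entries were higher and 667 lower. As the RNA is that of a sorted population, a change in the share of cells that express a gene and a change of RNA per cell cannot be told apart. The neutrophil marker sum given above was higher in every treated library than in any vehicle library, and its part in the members' differences was not tested.

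**Figure D1:**
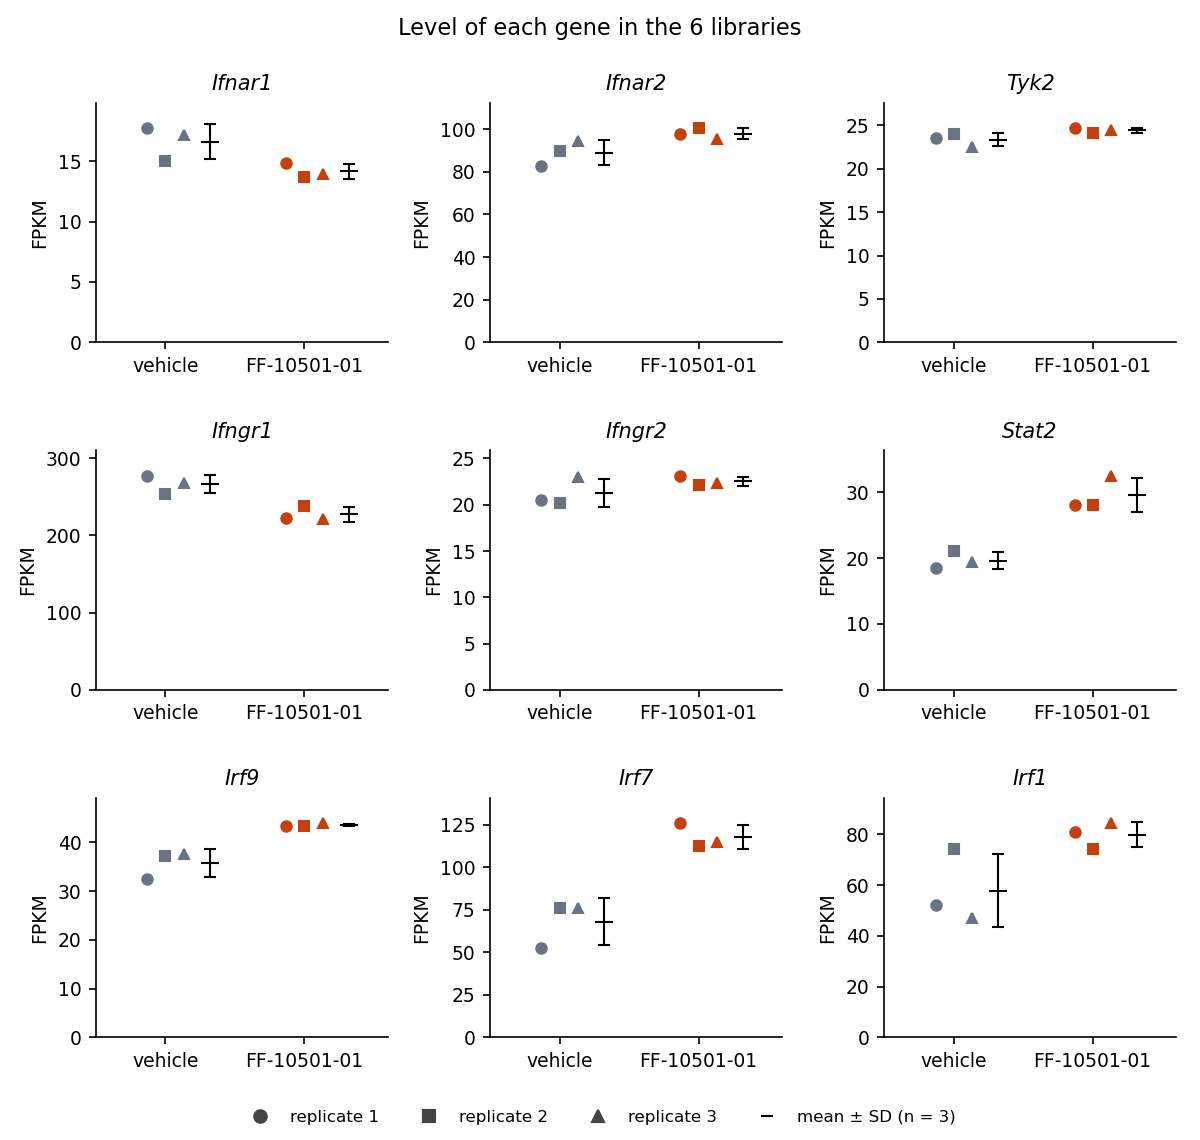
FPKM (y axes, from 0) of the 9 genes in the vehicle (grey) and FF-10501-01 (orange) libraries, with 1 point per library and the mean ± SD of 3 beside them; symbols mark column order and do not pair libraries. Irf7, Stat2 and Irf9 lie higher in all 3 treated libraries, Ifngr1 and Ifnar1 lie lower in all 3, and the Irf1 level of vehicle replicate 2 (74.1) lies just below that of the lowest treated library (74.4).

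In the type I receptor, Ifnar1, the chain that carries TYK2, was at 17.7, 15.0 and 17.1 FPKM in the vehicle libraries and at 14.8, 13.7 and 13.9 FPKM in the treated ones. The groups did not overlap, but the margin between the lowest vehicle and the highest treated library was small. The change was -0.22 on the log2 scale (standard error 0.070, 95% interval -0.38 to -0.05), which did not pass (limma adjusted p = 0.0721). It passed without vehicle replicate 2, the lowest vehicle library (log2 change -0.28, limma adjusted p = 0.0277). Ifnar2, the chain that binds the ligand most tightly and carries JAK1, was at 82.6, 89.9 and 94.6 FPKM in vehicle and at 97.6, 100.4 and 95.5 FPKM in treated libraries. All treated values were above all vehicle values, with vehicle replicate 3 close to the lowest of them. Its log2 fold change of 0.14 (95% interval 0.01 to 0.26) did not pass (limma adjusted p = 0.119), and it ran from 0.08 without vehicle replicate 1 to 0.18 without vehicle replicate 3.

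Tyk2, the kinase of the Ifnar1 chain, was among the least variable members. It measured 23.5, 24.05 and 22.5 FPKM in vehicle and 24.7, 24.09 and 24.5 FPKM in treated libraries. The groups did not overlap but came very close at vehicle replicate 2 and FF-10501-01 replicate 2. Its log2 fold change was 0.06 with a 95% interval from -0.05 to 0.17 (limma adjusted p = 0.392). The kinases that are not members were close to this, with log2 fold changes of 0.04 for Jak1 and 0.06 for Jak2, which serve the interferon receptors, and 0.12 for the merged entry of Jak3 and Insl3, and none of these passed (adjusted p = 0.502, 0.461 and 0.0970 from limma).

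Ifngr1, the ligand-binding chain of the interferon gamma receptor, was the most abundant member, at 277, 254 and 267 FPKM in vehicle and 222, 238 and 221 FPKM in treated libraries. All treated libraries were lower than all vehicle libraries. The log2 fold change was -0.23 (standard error 0.047, limma adjusted p = 0.0212). This call passed in 2 of the 6 settings that leave out 1 library: it was lost without vehicle replicate 1 (adjusted p = 0.0728), vehicle replicate 3 (0.0609), FF-10501-01 replicate 1 (0.0545) or FF-10501-01 replicate 3 (0.0818), with log2 fold changes between -0.26 and -0.20 over the 6. Ifngr2, the signalling chain, was at 20.6, 20.2 and 22.9 FPKM in vehicle and 23.1, 22.2 and 22.3 FPKM in treated libraries. Vehicle replicate 3 lay within the treated range. Its log2 fold change was 0.08 with a 95% interval from -0.05 to 0.22 (limma adjusted p = 0.351).

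Of these 4 receptor chains only Ifngr1 passed the test. The ratio of the chains' FPKM within a library, which does not depend on how the library was scaled, was computed after these values had been seen. For each ratio given here the smallest p that the 10 divisions of 6 libraries allow is 0.10. The Ifnar2 to Ifnar1 ratio was 4.66, 5.99 and 5.52 in vehicle and 6.58, 7.34 and 6.85 in treated libraries. It was higher in 3 of 3 treated libraries than in any vehicle library (exact two-sided permutation test, p = 0.10, and 0.10 adjusted over 3 ratios). The Ifngr1 to Ifngr2 ratio was 13.5, 12.6 and 11.6 in vehicle and 9.62, 10.7 and 9.90 in treated libraries, lower in all 3 treated libraries (exact two-sided permutation test, p = 0.10, and 0.10 adjusted). On the log2 scale the means differed by 0.37 for the type I and by -0.32 for the interferon gamma receptor.

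**Figure D2:**
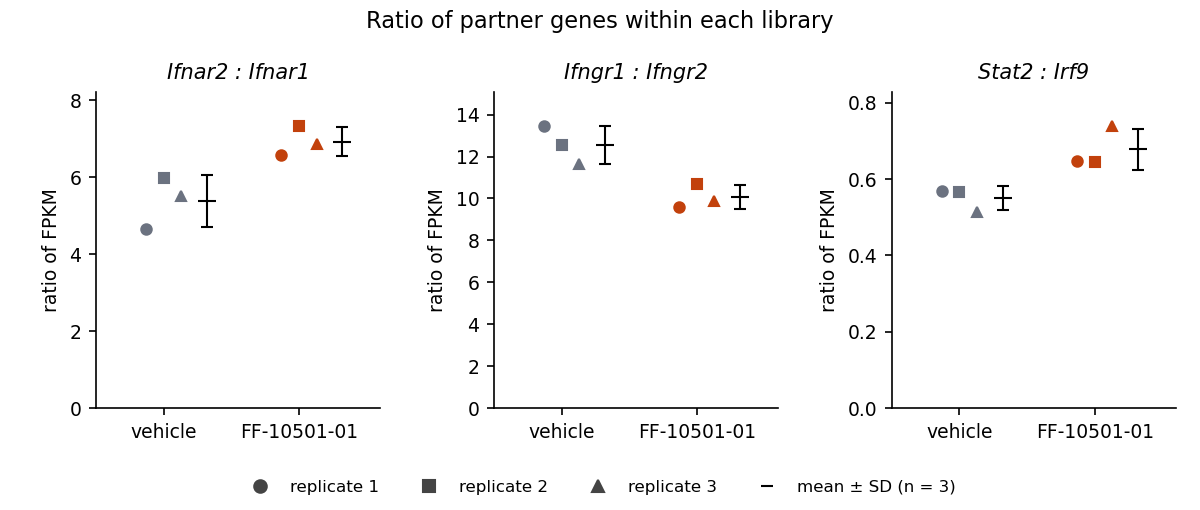
Ratio of FPKM (y axes, no unit, from 0) between the chains of each receptor and between Stat2 and Irf9 in each library, grey for vehicle and orange for FF-10501-01, with the mean ± SD of 3 libraries beside the points. The ratio of Ifnar2 to Ifnar1 runs from 4.66 to 5.99 in vehicle and from 6.58 to 7.34 in treated libraries, that of Ifngr1 to Ifngr2 lies lower in all treated libraries, and that of Stat2 to Irf9 lies higher.

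Ifnar2, Ifnar1 and Ifngr2 are neighbours on chromosome 16 of GRCm38, on the plus strand, within 192841 bases from 91372783 to 91565623 in the GENCODE annotation. Ifnar2 (91372783 to 91405589) is followed by Il10rb (91406164 to 91425834), a receptor chain shared by interleukin and interferon lambda receptors, then by Ifnar1 (91485238 to 91507441) and Ifngr2 (91547072 to 91565623). Another annotated gene, Gm21970, spans parts of Ifnar2 and Il10rb on the same strand and has no entry of its own in the table. Il10rb was at 54.6, 50.5 and 58.0 FPKM in vehicle and 57.7, 54.1 and 50.9 FPKM in treated libraries, overlapping groups with a log2 fold change of -0.003 (limma adjusted p = 0.979). Along this locus the log2 fold changes were therefore 0.14, -0.003, -0.22 and 0.08 in gene order, and none passed. Ifngr1 lies elsewhere, on chromosome 10 from 19591949 to 19610229.

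Stat2, which carries the transactivation domain of ISGF3, separated the groups more clearly than its partner Irf9. It lies on chromosome 10 from 128270559 to 128292849 and was at 18.5, 21.1 and 19.4 FPKM in vehicle and at 28.1, 28.0 and 32.5 FPKM in treated libraries. The gap between the groups was wider than the range within either group. On the log2 scale Stat2 rose by 0.56 (standard error 0.073, 95% interval 0.40 to 0.73, limma adjusted p = 0.00847). Stat2 was the only member that passed in all 6 settings that leave out 1 library, with log2 fold changes from 0.50 to 0.61, and it ranked 55 of 11004 entries by p.

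Irf9, the DNA-binding subunit of ISGF3, was at 32.4, 37.2 and 37.6 FPKM in vehicle libraries and in a narrow band of 43.4, 43.4 and 43.9 FPKM in treated ones. No treated library reached down to the vehicle range. This was a log2 fold change of 0.28 (standard error 0.061, limma adjusted p = 0.0234). The call was lost without FF-10501-01 replicate 1 (adjusted p = 0.0523), replicate 2 (0.0633) or replicate 3 (0.0830), with log2 fold changes of 0.29, 0.28 and 0.28. On chromosome 14 annotated exons of Irf9 (gene from 55603571 to 55610030) overlap exons of Rnf31, a subunit of a linear ubiquitin ligase, on the same strand. Reads of the shared stretch could be counted for either gene. Rnf31 was at 13.2, 13.8 and 13.3 FPKM in vehicle and 16.3, 15.8 and 15.8 FPKM in treated libraries (log2 change 0.23, limma adjusted p = 0.0222). The Stat2 to Irf9 ratio was 0.570, 0.567 and 0.515 in vehicle and 0.648, 0.645 and 0.740 in treated libraries, with no overlap (two-sided exact permutation, p = 0.10 and 0.10 adjusted over 3 ratios).

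Irf7 showed the largest difference of the 9. It lies on the minus strand of chromosome 7 from 141262706 to 141266481, where its annotated exons overlap exons of Phrf1 on the opposite strand. It was at 52.3, 76.1 and 75.9 FPKM in vehicle and at 126, 113 and 115 FPKM in treated libraries. The treated libraries lay well above the highest vehicle library, and vehicle replicate 1, also the lowest for Irf9 and Stat2, stood below the other vehicle libraries. Irf7 rose by 0.80 on the log2 scale (standard error 0.13, 95% interval 0.50 to 1.10, limma adjusted p = 0.0131), the 92nd largest rise among 11004 entries. Irf7 passed in 5 of the 6 settings that leave out 1 library and missed the threshold without FF-10501-01 replicate 3 (log2 fold change 0.82, adjusted p = 0.0524). Phrf1 differed by 0.04 on the log2 scale (limma adjusted p = 0.566). Exons of Irf1 and Tyk2 also overlap genes of the opposite strand, Gm17334 and 1700084C06Rik, that have no entry of their own. The neutrophil marker sum was 279, 306 and 290.1 FPKM in vehicle and 650.5, 898 and 1504 FPKM in treated libraries. In the vehicle group Irf7 and Stat2 were lowest where that sum was lowest and highest where it was highest. In the treated group Stat2 was highest where the sum was highest and Irf7 where it was lowest. These orders rest on 3 libraries per group, and a relation of either gene to the sum was not tested.

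Irf1, the factor that interferon gamma induces through the GAS element, differed from the other members in standing well above its other vehicle libraries in vehicle replicate 2. It lies on chromosome 11 from 53770014 to 53778374 and was at 52.3, 74.1 and 46.9 FPKM in vehicle and at 81.0, 74.4 and 84.3 FPKM in treated libraries. Vehicle replicate 2 was almost level with FF-10501-01 replicate 2, while the other vehicle libraries were well below. The log2 fold change was 0.49 (standard error 0.14, 95% interval 0.16 to 0.82) and narrowly missed the threshold (limma adjusted p = 0.0551). Without vehicle replicate 2 it was 0.68 and passed (limma adjusted p = 0.00654), and over the 6 settings that leave out 1 library it ran from 0.35 to 0.68.

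**Figure D3:**
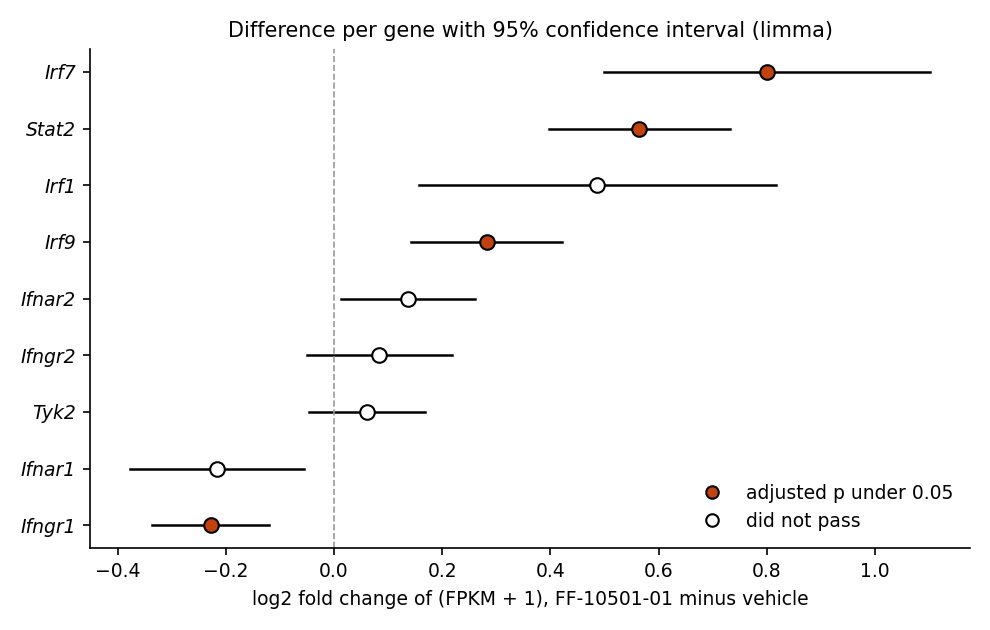
Log2 fold change of FPKM + 1 (x axis, FF-10501-01 minus vehicle) for each gene (y axis), with limma's 95% confidence interval as a line; filled points passed at an adjusted p under 0.05 and open points did not. Irf7 (0.80), Stat2 (0.56), Irf9 (0.28) and Ifngr1 (-0.23) passed, and the interval of Irf1 (0.16 to 0.82) is the widest.

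Compared per length of transcript, the levels of the 9 genes in vehicle-treated cells ran from Ifngr1 (mean 266 FPKM) over Ifnar2 (89.0), Irf7 (68.1), Irf1 (57.8), Irf9 (35.7), Tyk2 (23.4), Ifngr2 (21.2) and Stat2 (19.6) to Ifnar1 (16.6). The ranges of neighbours overlapped between Irf7 and Irf1, between Tyk2 and Ifngr2, and between Ifngr2 and Stat2. In treated cells Irf7 (mean 118 FPKM) stood second, above Ifnar2 (97.8), and Stat2 (29.5) stood above Tyk2 (24.4) and Ifngr2 (22.5). There no neighbours overlapped. Ifnar1, the least abundant, was at 14.1 FPKM.

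The entries whose pattern over the 6 libraries was most like that of a member were named for Irf7 and Irf1, by the smallest root mean square difference of log2 values centred on each entry's mean. For Irf7 they were Oas3, an antiviral oligoadenylate synthetase (0.025), Ifit1, an antiviral RNA-binding protein (0.053), and Gm20559 (0.062). Oas3 went from 12.2, 18.0 and 17.8 FPKM in vehicle to 30.3, 26.0 and 28.0 FPKM in treated libraries, low in vehicle replicate 1 as Irf7 was. For Irf1 they were Ralgds, an exchange factor for Ral GTPases (0.069), the merged entry of Dleu2 and Gm20034 (0.088), and Nfkb2, an NF-kB subunit precursor (0.095). Ralgds was at 1.03, 1.70 and 0.988 FPKM in vehicle and 1.99, 1.78 and 2.14 FPKM in treated libraries, high in vehicle replicate 2 as Irf1 was. Only 6 libraries stand behind these likenesses, and the treatment is part of each pattern. The measure also counts the size of the differences, so an entry of similar shape with larger differences, such as Gbp2 beside Irf1, is not favoured.

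The interferon ligands were at or near 0. Of 21 ligand genes listed, 17 had an entry, 12 were listed at 0 in all 6 libraries, among them every interferon alpha gene measured, and none reached the filter. Ifnb1, the interferon beta gene, was listed at 0 in the vehicle libraries and FF-10501-01 replicate 1 and at 0.077 and 0.087 FPKM in the other treated libraries. Ifng, the interferon gamma gene, was at 0, 0.050 and 0.081 FPKM in vehicle and 0.050, 0 and 0.15 FPKM in treated libraries. Ifnz was at 0.24, 0.081 and 0.065 FPKM in vehicle and 0, 0.073 and 0.082 FPKM in treated libraries, and Ifne (0.10 FPKM in vehicle replicate 1) and Ifnk (0.079 FPKM in vehicle replicate 2) were above 0 in 1 library each. An exact 0 in a table without counts can also be a failed estimate, and the source of any ligand outside the sorted cells was not measured.

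The counts of this and the following lists stand beside 7.43% of all 11004 entries called higher and 7.46% called lower. Among STAT and IRF factors that are not members, 9 were tested, of which 3 rose, 1 fell and 5 did not pass, with a median log2 fold change of -0.003. Those that rose were Irf3, the constitutive factor that induces interferon beta (32.3 ± 2.07 to 39.6 ± 2.26 FPKM, SD, n = 3), Stat6, the factor of IL-4 signalling, and Stat3, the factor of IL-6 signalling (log2 change 0.25). Stat4, the factor of IL-12 signalling, fell from 51.4, 35.5 and 45.3 FPKM to 29.7, 30.3 and 26.9 FPKM (log2 change -0.58, limma adjusted p = 0.0209). Irf8, a factor of monocyte and dendritic cell development, was the most abundant of those that did not pass (91.3 ± 4.26 and 91.2 ± 6.40 FPKM, limma adjusted p = 0.979). Leaving out vehicle replicate 1 or 3 or FF-10501-01 replicate 2 or 3 left 0 higher genes, leaving out vehicle replicate 2 gave 2 lower ones, and the call of Stat4 was lost without vehicle replicate 1 or 3 or FF-10501-01 replicate 3.

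Among feedback genes and inhibitors of the pathway 16 were tested, of which 5 rose, 1 fell and 10 did not pass, with a median log2 fold change of 0.17. Usp18, which displaces JAK1 from IFNAR2, was at 10.7, 17.4 and 16.7 FPKM in vehicle and 27.3, 23.9 and 23.1 FPKM in treated libraries, again lowest in vehicle replicate 1. Its log2 fold change was 0.72 (limma adjusted p = 0.0251). Trim21, an interferon-induced ubiquitin ligase that is also an antibody receptor of the cytosol, rose by 0.56 and the phosphatase gene Ptpn6 by 0.19 on the log2 scale, while Pias2, a SUMO ligase, fell by 0.23 on the log2 scale. The remaining genes that rose, Ptpn1 (0.19) and Irf2bp1 (0.19), and the JAK inhibitor Socs1, which did not pass at 0.60 (limma adjusted p = 0.0556), were named after their values were seen. The phosphatase gene Ptprc was the most abundant that did not pass (81.8 and 86.9 FPKM, adjusted p = 0.159). Leaving out vehicle replicate 1 or 3 left 2 higher genes, leaving out treated replicates 1, 2 and 3 in turn left 3, 1 and 0, and Pias2 lost its call on leaving out any one of these 5. Usp18 lost its call on leaving out any treated library (adjusted p = 0.0615, 0.0592 and 0.0772 in replicate order, limma).

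Of 10 regulators that act before IRF factors, 2 were higher and 8 did not pass. Ticam1, the adaptor of TLR3 and TLR4 that leads to IRF3, rose from 11.7, 11.1 and 11.6 FPKM to 14.6, 16.5 and 17.1 FPKM (log2 change 0.45, limma adjusted p = 0.0112), and STING, the DNA-sensing adaptor encoded by Tmem173, rose on the log2 scale by 0.22 (adjusted p = 0.0422). Leaving out any 1 library took the Tmem173 call away. Ikbke, a kinase of IRF factors, had a log2 value of 0.21 for the change (adjusted p = 0.0627), and Traf6, the ubiquitin ligase of TLR signalling, one of -0.23 (adjusted p = 0.0780), which passed without FF-10501-01 replicate 1 (0.0483). The merged entry of Irak1, Mir5132 and Mir718 was at 57.6 FPKM in both groups (limma adjusted p = 0.996).

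Downstream, 28 target genes of ISGF3 were tested, of which 26 rose, 0 fell and 2 did not pass, with a median log2 fold change of 0.54. Ifit2, an antiviral RNA-binding protein, went from 17.4, 19.8 and 19.4 FPKM to 27.5, 24.3 and 26.7 FPKM (limma adjusted p = 0.0112). Oas2, Ifi27l2a and Samd9l, all induced by interferon, had log2 fold changes of 0.60, 0.94 and 0.72. Ifih1, the RNA sensor MDA5 (31.4 and 35.7 FPKM, adjusted p = 0.0567), and Mx2, an antiviral GTPase named after its values were seen (3.57 and 5.14 FPKM, adjusted p = 0.0563), did not pass. Of 25 tested target genes of interferon gamma, 18 rose, 0 fell and 7 did not pass, with a median of 0.76. Tapbp, which loads peptides onto MHC class I, went from 114, 131 and 127 FPKM to 160.5, 151 and 169 FPKM (log2 change 0.37, limma adjusted p = 0.0144). Fcgr1, an IgG receptor, Irgm2 and Gbp9, both interferon-induced GTPases, had log2 fold changes of 1.38, 1.05 and 0.97, and Psmb8, an immunoproteasome subunit, was the most abundant that did not pass (0.10, adjusted p = 0.157). Against the 26 and 18 given, the counts of higher targets were 4 and 3 without FF-10501-01 replicate 3. They were 13 and 11 when treated replicate 1 was left out and 17 and 5 when vehicle replicate 1 was, while the ISGF3 count was 16 when treated replicate 2 was left out and the other was 7 without vehicle replicate 3.

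**Figure D4:**
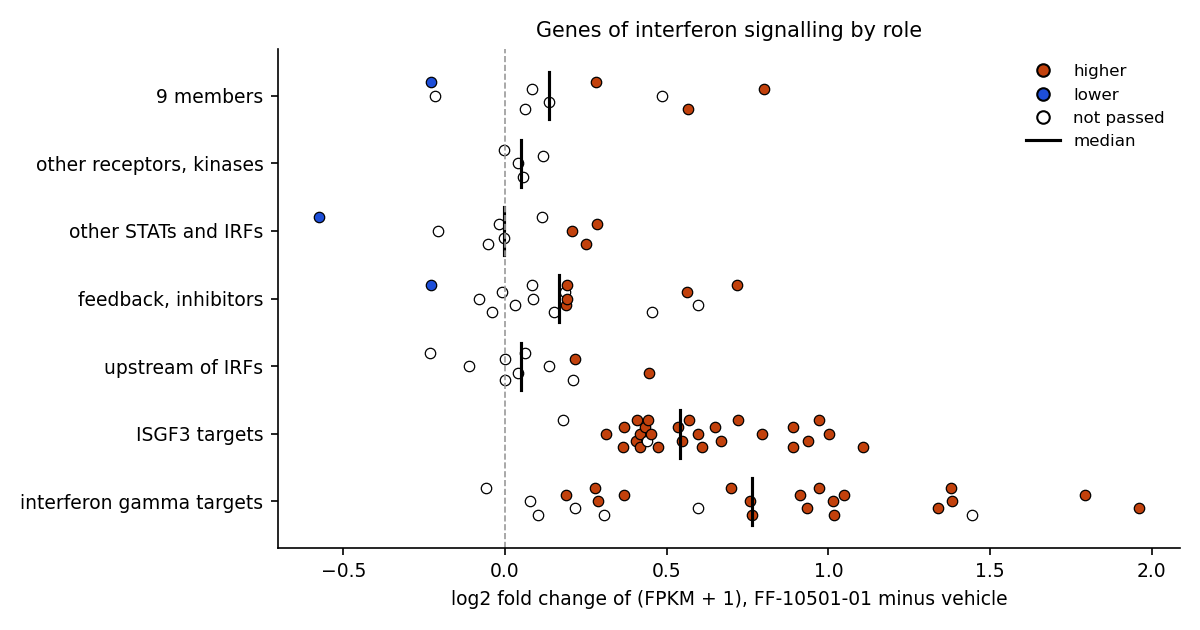
Log2 fold change of FPKM + 1 (x axis, FF-10501-01 minus vehicle) of each tested gene in 7 groups by role (y axis), orange for higher and blue for lower at an adjusted p under 0.05 from limma, open where it did not pass, with a bar at the median. Medians are 0.14 for the 9 members, 0.05 for other receptors and kinases, 0.54 for ISGF3 targets and 0.76 for interferon gamma targets.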

How the data were processed

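RNA-Seq was made from GFP+ cells of 6 mice, 3 per group, with a strand-specific kit. Per the submitters' processing notes, the authors used cutadapt 1.8.1 for trimming, TopHat2 2.1.1 for alignment to GRCm38 and Cufflinks 2.2.1 for the deposited FPKM per gene. FPKM relate a gene to all mapped fragments, so large changes elsewhere shift them, and how strand was used in counting is not given in the sources used here. Cuffdiff, the study's test, needs reads and was not repeated.

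Values were taken as log2(FPKM + 1), so folds of low genes are understated, for 11004 of 26384 entries with a mean of at least 1 FPKM. limma 3.58.1 (R 4.3.3) was fitted with treatment as its only term and eBayes with trend. Tests were two-sided, with Benjamini-Hochberg adjustment over all entries and 0.05 as threshold. The fit was tested on simulated data. Figures used Python 3.11.15 and matplotlib 3.10.9. Depth is unknown in absolute terms, so no counting interval is given.

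The members and gene lists were chosen with earlier results of these data known. Named genes are all members, and of each list the up to 4 with the smallest p, the most abundant that did not pass, and every ligand above 0. Listed genes with no entry were not analysed here, and 1 listed gene is not reported here and was left out of its list. Results were recomputed with median-of-ratios, TPM or quantile scaling, with 0.1 as pseudocount, without a filter or with one at 5 FPKM, without eBayes trend, with a replicate block, and leaving out each library.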

Additional observations from a re-analysis of the deposited data

How the results depend on the processing

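Stat2 and Irf7 kept their calls under all 8 alternatives other than leaving out a library, with log2 fold changes of 0.56 to 0.59 and 0.80 to 0.82. Without a filter on low values, 17293 entries were tested, and Ifngr1 (-0.23, adjusted p = 0.0542 from limma) and Irf9 (0.28, adjusted p = 0.0561) did not pass, so that 0 members were lower. Over all entries 337 were then higher and 244 lower, with 1 higher and 0 lower other STAT and IRF factors, 1 higher and 0 lower feedback genes, 1 higher upstream regulator, 7 ISGF3 targets and 5 interferon gamma targets. Irf1 passed with a filter at 5 FPKM (0.49, adjusted p = 0.0473) and as TPM (0.51, adjusted p = 0.0445). Without a trend in eBayes 512 entries were lower, 2 feedback genes higher and 1 upstream regulator higher. With the replicate number as a block 3 feedback genes, 1 upstream regulator and 17 ISGF3 targets were higher and 1 upstream regulator (Traf6) lower. That block has no support in the labels, since correlations of same-numbered libraries' deviations were -0.01, -0.07 and -0.04, and no library correlated best with its own number.

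Leaving out each library in turn gave 1 to 4 members higher and 0 to 2 lower, 147 to 884 entries higher and 71 to 789 lower, 0 to 3 other STAT and IRF factors higher and 0 to 2 lower, 0 to 5 feedback genes higher and 0 to 1 lower, 1 upstream regulator higher in every setting and 0 to 1 lower, 4 to 26 ISGF3 targets higher and 3 to 20 interferon gamma targets higher. Log2 fold changes ran from -0.28 to -0.17 for Ifnar1, -0.26 to -0.20 for Ifngr1, 0.35 to 0.68 for Irf1, 0.62 to 0.89 for Irf7 and 0.21 to 0.32 for Irf9. No member changed sign in any setting. The cause of these shifts was not tested beyond the smaller number of libraries or the larger number of entries in the adjustment.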

Other observations

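The promoter windows of the genes listed as targets of ISGF3 and of interferon gamma were searched for the same strings. Of 21 tested ISGF3 target genes with a RefSeq window, 11 held the ISRE string and 4 held TTCNNNGAA. Of 19 tested interferon gamma targets with a window, 10 held the ISRE string and 7 held TTCNNNGAA. Of all 27025 genes with a window, 3.99% held the former and 9.55% the latter. These shares are descriptions, with no test, of lists of pathway genes that were chosen with earlier results of these data known.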
